A study of Mus musculus with 18 samples.

Results

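Fully reprogrammed induced pluripotent stem (iPS) cells of the mouse were compared with embryonic stem (ES) cells. The comparison used 9 of the 18 arrays of the series, chosen by sample title: 3 of the iPS line EOS3F-28, 3 of the iPS line EOS3F-29 and 3 of the ES line J1. The iPS side is the mean of the 2 line means, and each line is also given alone. Both iPS lines came from CD1 mouse embryonic fibroblasts (MEFs) that had received the retroviruses pMX-Oct4, pMX-Klf4 and pMX-Sox2, with no Myc virus named. Their cultures held growth-arrested feeders, LIF and puromycin at 1 μg/mL. J1 cultures held feeders and LIF too, with no puromycin named in the labels. The other 9 arrays hold CD1 MEFs, the partially reprogrammed line EOS3F-24 and the same line after 2i conversion (a MEK and a GSK inhibitor), and they entered the fit only to estimate each gene's spread. The question was whether iPS lines described as full differ from ES cells in their transcripts, and in which genes.

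Each group is a single cell line. J1 was derived from another mouse strain, so reprogramming history, strain, line and puromycin cannot be told apart in any difference between the iPS lines and J1. Nothing in the labels says that the 3 arrays of a line came from separate cultures, so p-values measure the spread between arrays, which may be technical.

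Mouse ES cells hold the ground, or naive, state of pluripotency with a circuit of transcription factors around Pou5f1 (Oct4), Sox2 and Nanog, helped by Esrrb, Tfcp2l1, Klf2, Tbx3 and Prdm14. LIF feeds this circuit through its receptor and STAT3. Cells that move towards the epiblast of the implanting embryo lose the naive factors and gain Dnmt3b, Fgf5, Otx2 and the microRNAs of the miR-302 cluster, a state called formative and then primed. Reprogrammed cells are commonly set against ES cells on these genes.

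All values are log2 levels after RMA, a method that corrects background, normalizes between arrays and sums up probes. A difference of 1 is therefore 2-fold, and errors are SE of the difference. The 9 arrays had medians between 3.95 and 4.11. Arrays of 1 group correlated over genes at 0.9697 to 0.9912 and arrays of different groups at 0.947 to 0.9867, so the groups overlapped on this measure. Pluripotency genes bore out the labels: the mean of 28 core genes was 7.27 to 7.61 in the 6 iPS arrays and 7.63 to 7.87 in the J1 arrays, against 4.13 to 4.31 in MEFs. Fibroblast genes were read in every culture. The mean of 31 such genes was 6.39 to 8.02 in the iPS arrays and 6.16 to 7.15 in the J1 arrays, against 8.80 to 8.96 in MEFs, and none of the 31 was called. Their median difference from J1 was 0.364, the highest of the 31 lists (0.242 in EOS3F-28 and 0.53 in EOS3F-29, beside -0.023 over all genes), and it ranged from 0.139 without replicate 2 of J1 to 0.626 without replicate 1 of J1. Bulk RNA does not tell which cells of a culture made these transcripts, nor more feeder cells from more RNA per feeder cell.

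A gene was called when its adjusted p from limma (Benjamini-Hochberg over 19937 genes) was under 0.05. By this rule 949 genes differed between the iPS lines and J1, which is 4.76% of those tested, with 258 higher in the iPS lines (1.29%) and 691 lower (3.47%). The fall-heavy split depended in part on the scaling: 27.2% of calls were rises as deposited, 46.2% after cyclic loess, 44.1% after quantile normalization and 36.1% after centring on housekeeping genes. Most differences were small. The median absolute difference was 0.112, and 95% of genes lay within 0.5 of J1. At least 2-fold and called were 80 genes (0.401%), of which 35 were higher (0.176%) and 45 lower (0.226%). Here the scaling turned the split round, to 46 higher and 35 lower after cyclic loess and 49 higher and 41 lower after quantile normalization. The 6 iPS and the 3 J1 arrays did not overlap for 71 of these 80, beside 2.38% of all genes without overlap upwards and 5.02% downwards. When only the 7331 genes with a mean level of at least 5 were fitted, 165 were called higher and 552 lower (median -0.055). Counts in the gene lists below were not tested against the shares over all genes. For lists of bright genes the 7331 are the nearer background, since falls were more common among them.

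Each line alone gave 984 calls for EOS3F-28 (4.94%; 1.34% higher, 3.6% lower) and 374 for EOS3F-29 (1.88%; 0.542% higher, 1.33% lower). The 80 genes had the same sign in both lines, which choosing them by the mean of the lines favours, and 42 of them were at least 2-fold from J1 in each line. For 16 of the 80 the lines also differed from each other. Without replicate 3 of J1 only 303 genes were called, and 302 of these were among the 949; with the 9 arrays fitted on their own the count was 520.

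**Figure D1:**
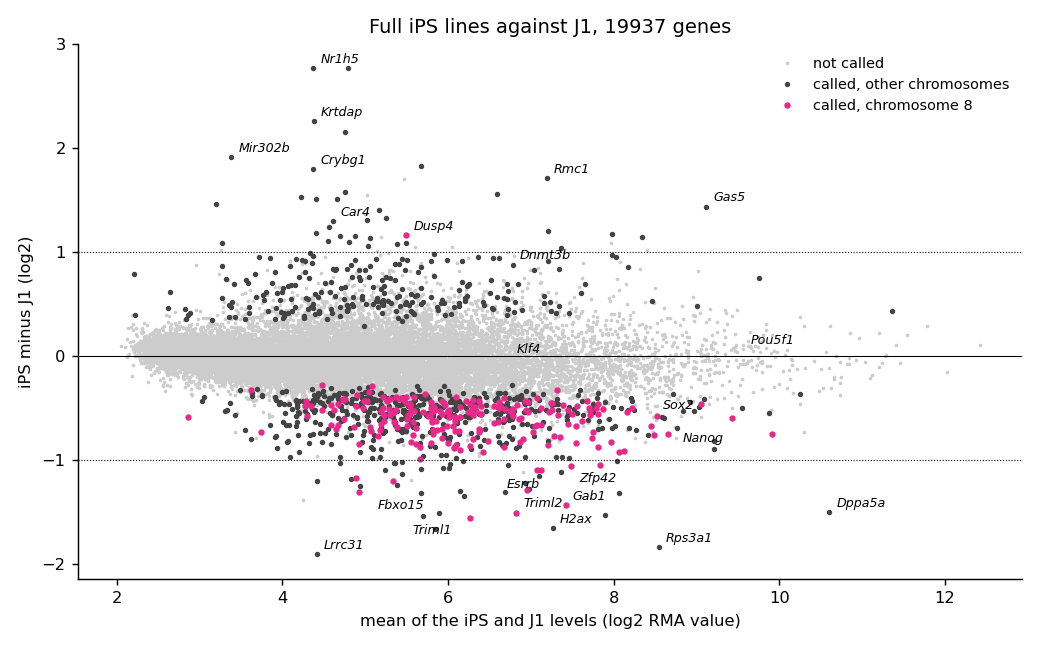
Difference between the iPS lines and J1 (y axis, log2) against the mean of the iPS and J1 levels (x axis, log2 RMA value) for 19937 genes; dark points are called genes, pink points are called genes on chromosome 8 and dotted lines mark a 2-fold change. Called falls (691) outnumber called rises (258), the pink points lie below 0 except Dusp4, and Pou5f1 and Klf4 lie close to 0.

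None of the 3 delivered factors was called over both lines. Pou5f1 read 9.93, 10.13 and 10.06 in EOS3F-28, 8.88, 9.19 and 9.37 in EOS3F-29, and 9.70, 9.28 and 9.62 in J1. The J1 arrays lay between those of the iPS lines, apart from 1 EOS3F-29 array inside their range. Over both lines the difference was 0.06 ± 0.14, with a 95% interval from -0.23 to 0.36 (adjusted p = 0.878). The lines themselves differed, by 0.90 (adjusted p = 0.0124), a call that ended when replicate 2 (0.0709) or 3 of EOS3F-28 or replicate 1 of EOS3F-29 was left out. Klf4 differed by -0.02 ± 0.14, with an interval from -0.31 to 0.27. Sox2, lower in all 6 iPS arrays (7.81 to 8.56) than in J1 (8.63 to 9.06), missed the threshold at -0.62 ± 0.17 (adjusted p = 0.0524) and passed it without replicate 2 of EOS3F-28 (0.0189). Transcripts of a retrovirus and of the cell's own gene cannot be told apart by these probe sets. Myc, which was not delivered, read 7.01, 7.21 and 7.01 in EOS3F-28, 6.58, 5.54 and 6.09 in EOS3F-29, and 6.32, 4.85 and 5.41 in J1. EOS3F-28 lay above J1 and was called against it alone (1.55, adjusted p = 0.0345), while EOS3F-29 overlapped J1. Over both lines the difference of 1.05 ± 0.35 was not called (adjusted p = 0.107), though it was without replicate 1 of J1 (0.0353). None of 10 genes of the introduced factors and the Myc family was called over both lines.

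Among 28 core pluripotency genes 6 were lower in the iPS lines than in J1 and none was higher. The list's median was -0.261, against -0.023 over all genes and -0.055 over the 7331 genes with a mean level of at least 5. Nanog, the homeodomain factor of the core circuit, stood at 8.04 to 8.78 in the iPS arrays and 9.0 to 9.18 in J1. The groups did not overlap, but -0.68 ± 0.19 was not called (adjusted p = 0.0535), and it was called without replicate 2 of EOS3F-28 (0.0297). Fbxo15, an F-box gene used as a reporter of pluripotency, read 5.34, 5.76 and 5.42 in EOS3F-28, 4.44, 4.98 and 4.88 in EOS3F-29, and 6.94, 6.34 and 6.65 in J1. Every iPS array was below every J1 array, and the difference was -1.51 ± 0.18 (adjusted p = 7.36e-05). Dppa5a, an RNA-binding protein of pluripotent cells, read 11.27 to 11.50 in J1 and 9.38 to 10.37 in the iPS arrays, without overlap (-1.50 ± 0.25, adjusted p = 0.00158). The other called members were Nacc1, a transcriptional repressor (-0.77 ± 0.10, adjusted p = 1.83e-04), Lin28a (-0.52 ± 0.14, 0.0358) and Lin28b (-0.47 ± 0.11, 0.0163), which block let-7 maturation, and the thyrotropin-releasing hormone gene Trh (-0.81 ± 0.21, 0.0335). Lin28b was lost without replicate 3 of J1 (0.159); Lin28a and Trh were lost when any of 6 and any of 5 arrays was left out, at up to 0.159 and 0.192 without that array. Utf1 (-0.38 ± 0.14, adjusted p = 0.146) was not called.

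The naive list gave more falls. Of 21 measured members 10 were lower in the iPS lines and none was higher, with a median of -0.573. Tcl1, a co-activator of Akt, read 5.20, 5.39 and 5.40 in EOS3F-28, 5.16, 5.84 and 5.96 in EOS3F-29, and 6.94, 6.54 and 6.88 in J1, a difference of -1.30 ± 0.16 (adjusted p = 1.22e-04). Esrrb, an orphan nuclear receptor at the centre of the naive circuit, read 6.52, 7.20 and 6.92, then 6.48, 7.02 and 6.72, and 7.83, 7.83 and 8.10 in J1. Every iPS array was below every J1 array, and the difference was -1.11 ± 0.15 (adjusted p = 2.42e-04). Zfp42 (Rex1), the classic marker of ES cells, was tight in the iPS arrays (6.86 to 7.13) and spread in J1 (8.38, 7.42 and 8.22), at -1.05 ± 0.19 (adjusted p = 0.00381). Tcl1, Esrrb and Zfp42 were also called in each line alone (Zfp42 at 0.00791 in EOS3F-28 and 0.0236 in EOS3F-29).

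Smaller falls in the same list were those of Tfcp2l1, a factor under STAT3 (-0.87 ± 0.14, adjusted p = 0.00116), Klf2 (-0.85 ± 0.14, 0.00139) and Nr5a2, which binds the Pou5f1 gene (-0.72 ± 0.12, 0.00158). All 3 held when any single array was left out. Prdm14, which keeps DNA methylation low, was at -0.61 ± 0.12 (adjusted p = 0.00527) and lost its call without replicate 3 of J1 (0.0576). Fgf4 (-0.77 ± 0.19, adjusted p = 0.0239), the DNA demethylase Tet2 (-0.69 ± 0.16, 0.0201) and Tbx3 (-0.57 ± 0.15, 0.0349) were lost when any of 4, 2 and 6 arrays was left out, at up to 0.16, 0.17 and 0.236 without replicate 3 of J1. In EOS3F-29 alone the list's median was -0.338 and 5 members were called, against -0.688 and 10 in EOS3F-28. Klf2 and Zfp42 lie on chromosome 8, and without that chromosome 8 of 19 members were lower, with a median of -0.299. Dppa3 (Stella), a gene of oocytes and naive cells, was at 0.44 ± 0.18 and was not called (adjusted p = 0.221).

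**Figure D2:**
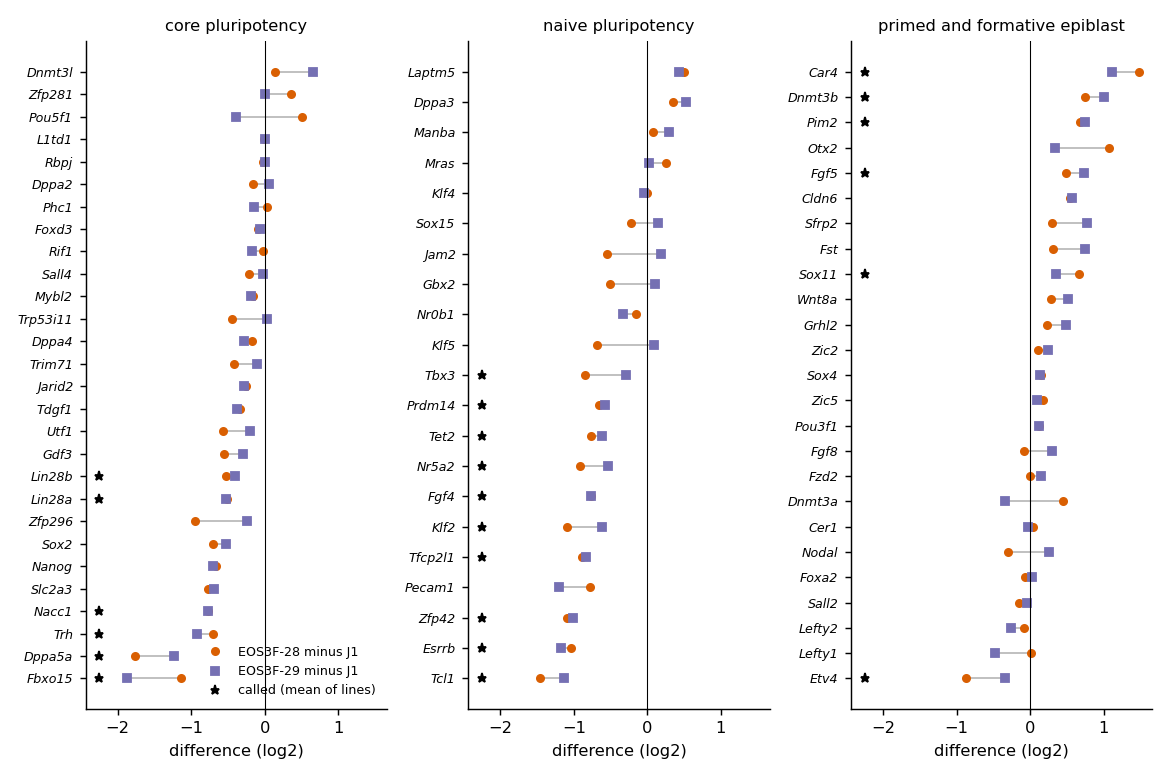
Difference from J1 (x axis, log2) of each measured gene of the core, naive and primed lists, for EOS3F-28 (circles) and EOS3F-29 (squares), with a star at the left margin where the mean of both lines was called. The 10 starred genes of the naive panel lie left of 0 in both lines, and of the 6 starred genes of the primed panel 5 lie right of 0.

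Genes of the formative and primed epiblast moved the other way in part. Of 25 measured, 5 rose and 1 fell, with a median of 0.141. This list, like the others, was written with earlier results of these data known, so the counts are no independent test. Dnmt3b, the de novo DNA methyltransferase that marks the exit from the naive state, read 7.16, 7.04 and 7.07 in EOS3F-28, 7.30, 7.52 and 7.22 in EOS3F-29, and 6.59, 6.08 and 6.35 in J1. Each iPS array exceeded each J1 array, and the rise was 0.88 ± 0.14 (adjusted p = 0.00131). Car4, a membrane-bound carbonic anhydrase, rose by 1.30 ± 0.13 (adjusted p = 1.73e-05), from 3.70, 4.11 and 4.07 in J1 to 4.85 to 5.50. Pim2, a serine/threonine kinase, rose by 0.71 ± 0.11 (adjusted p = 0.00106). Fgf5, the growth factor of the primed epiblast, read 4.80, 4.22 and 4.92 in EOS3F-28, 5.07, 4.71 and 4.89 in EOS3F-29, and 4.20, 4.12 and 4.15 in J1. It was low in all 3 groups and the lowest iPS array all but met J1. Its rise of 0.61 ± 0.13 (adjusted p = 0.00901) was lost without replicate 3 of J1 (0.0588) and in the fit of 9 arrays (0.057). The call of Sox11 (0.51 ± 0.13, adjusted p = 0.0341) ended when any of 8 arrays was left out, at up to 0.112 without replicate 2 of J1. Otx2, the homeodomain factor of the formative state, read 6.78 to 7.50 in EOS3F-28 and 5.79 to 7.03 in EOS3F-29 against 5.86 to 6.30 in J1. Its difference of 0.70 ± 0.20 was not called (adjusted p = 0.0571), but was without replicate 1 of EOS3F-29 (0.0105) and under cyclic loess (0.043). Etv4, an ETS factor under FGF signalling, was the member that fell (-0.60 ± 0.11, adjusted p = 0.00351), but not called in EOS3F-29 alone (0.232).

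Lineage genes beyond the epiblast gave few calls. In the gastrulation list 2 of 19 genes fell, Fgf17 (-0.87 ± 0.12, adjusted p = 4.43e-04) and Hhex (-0.33 ± 0.09, 0.0454), and Hhex was lost when any of 7 arrays was left out (up to 0.175, without replicate 1 of J1). Of 22 primitive endoderm genes Dab2, an endocytic adaptor, rose by 1.08 ± 0.19 (adjusted p = 0.00224), and the laminin chain gene Lama1 fell (-0.48 ± 0.12, 0.0285), a call lost when any of 5 arrays was left out (up to 0.229, without replicate 3 of J1). Dab2 was called in EOS3F-28 alone (1.56, adjusted p = 4.2e-04) and not in EOS3F-29 (0.60, 0.198). It also stood at 6.81 in MEFs and at 7.315 in the partial line. Lama1 was not called in EOS3F-29 alone either (0.481). None of 19 trophoblast, 17 neural and 12 measured 2-cell-like genes was called, and of 19 macrophage and endothelial genes 1 was, the endothelial receptor gene Tek (0.60 ± 0.14, adjusted p = 0.0219). Its call was lost without any single J1 array (up to 0.0866, without replicate 3) and in EOS3F-29 alone (0.634).

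Of the 5 microRNA genes of the miR-302 cluster, which pluripotent cells transcribe as 1 unit, 3 rose over both iPS lines, and 2 of these, Mir302b and Mir302c, were also called in each line alone. The 5 hairpins lie within 580 bases at chr3:127545228-127545807 on the plus strand (RefSeq, build GRCm38.p6). The mature sequences of the 3p arms are shown because the miR-302 members share the part that pairs with targets; the seed, bases 2 to 8, is in capitals, and 4 of the 5 were matched in RefSeq by name.
mmu-miR-302b-3p: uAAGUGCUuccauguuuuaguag
mmu-miR-302c-3p: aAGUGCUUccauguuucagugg
mmu-miR-302d-3p: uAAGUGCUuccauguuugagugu
mmu-miR-367-3p: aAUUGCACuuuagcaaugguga
miR-302b and miR-302d have the same seed, AAGUGCU. That of miR-302c, AGUGCUU, is shifted by a base in a 16-base stretch, AAGUGCUUCCAUGUUU, which all 3 contain. miR-367 has another seed, AUUGCAC.

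Mir302b read 5.05, 3.32 and 4.45 in EOS3F-28, 5.25, 3.33 and 4.63 in EOS3F-29, and 2.59, 2.27 and 2.42 in J1. All 6 iPS arrays were above J1, whose level was like that of MEFs (2.40). The rise was 1.91 ± 0.37 (adjusted p = 0.00556), and it was called in every alternative that tested it, the filter at a mean level of 5 leaving it out. Mir302c read 4.55, 3.24 and 3.84, then 5.18, 2.96 and 3.85, and 2.48, 2.45 and 2.48 in J1, a rise of 1.47 ± 0.33 (adjusted p = 0.0156) that was lost without replicate 2 (0.0558) or 3 of J1 (0.0816) and in the fit of 9 arrays (0.0867). Mir367 rose by 0.62 ± 0.15 (adjusted p = 0.0269) and was lost when any of 5 arrays was left out, at up to 0.137 without replicate 3 of J1. Mir302d (1.02 ± 0.29, adjusted p = 0.0524) and Mir302a (0.87 ± 0.25, 0.0583) missed the threshold. In each of the 5 hairpin genes the lowest array of either line was replicate 2, and replicate 1, which read most fibroblast RNA, was the highest. MEFs themselves read 2.36 (Mir367) to 2.84 (Mir302d) for the 5 genes, and with the fibroblast list as a covariate Mir302b differed by 1.54 (adjusted p = 3.45e-04). The probe sets are annotated to hairpin genes, near the low end of the scale, and mature microRNAs were not measured apart. The genes Mir17hg (0.51 ± 0.19, adjusted p = 0.158), Mir17, Mir19a, Mir20a and Mir106a of related clusters were not called.

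Of 22 genes of the LIF and STAT3 list 4 fell and 1 rose, around a median of 0.005. Lifr, the LIF receptor chain, read 5.14, 5.27 and 5.18 in EOS3F-28, 5.58, 5.89 and 5.36 in EOS3F-29, and 6.25, 6.26 and 6.31 in J1. The groups were apart, and the difference was -0.87 ± 0.10 (adjusted p = 7.36e-05). Socs3, the feedback inhibitor that STAT3 induces, fell by 0.86 ± 0.13 on the log2 scale (adjusted p = 8.69e-04). The kinase gene Pim3, another STAT3 target, was at -0.47 ± 0.10 (adjusted p = 0.0106) and was lost without replicate 3 of J1 (0.0728). Tfcp2l1, described above, is the remaining fall. The surface antigen gene Ly6e rose by 1.14 ± 0.12 (adjusted p = 2.43e-05), to 8.64 to 9.17 from 7.55 to 8.08. Stat3 itself (-0.06) was not called.

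Of 30 genes of ERK feedback and the immediate early response 1 rose and 2 fell. Dusp4, a nuclear phosphatase that ERK signalling induces, read 5.97, 5.92 and 5.75 in EOS3F-28, 6.41, 6.33 and 6.09 in EOS3F-29, and 4.69, 4.97 and 5.09 in J1. It was higher in all 6 iPS arrays, by 1.16 ± 0.14 (adjusted p = 7.62e-05). The feedback inhibitor gene Spry4 (-0.85 ± 0.22, adjusted p = 0.0314) and Etv4 fell, Spry4 being lost when any of 5 arrays was left out (up to 0.17, without replicate 3 of J1). Neither was called in EOS3F-29 alone (0.296 and 0.232). Dusp6, another feedback phosphatase gene, was at 0.27 ± 0.22 (adjusted p = 0.602).

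Of 23 Wnt genes 2 rose. Lef1, a nuclear effector of Wnt signalling, went from 4.25, 4.45 and 4.53 in J1 to 5.16 to 5.84 in the iPS arrays, by 0.92 ± 0.14 (adjusted p = 0.00104). Tcf7l1, the Wnt effector that represses naive genes, was higher by 0.56 ± 0.11 (adjusted p = 0.00493), a call lost without replicate 3 of J1 (0.0569). Axin2, the common Wnt target, was at -0.30 ± 0.10 (adjusted p = 0.0888). None of 30 Nodal and BMP genes was called.

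Next to the unnamed clone AI506816 (2.77), the largest rise was that of Nr1h5, a nuclear receptor related to the farnesoid X receptor. It read 5.23, 6.31 and 5.70 in EOS3F-28, 5.36, 6.31 and 5.65 in EOS3F-29, and 3.24, 2.80 and 2.94 in J1. Its replicate 2 arrays were highest in both lines, and the lines differed by -0.02 ± 0.24, while the rise over J1 was 2.77 ± 0.21, or 6.8-fold (adjusted p = 6.26e-07). Rmc1, a subunit of the complex that activates Rab7 at late endosomes, read 7.68, 8.66 and 7.83, then 7.88, 8.55 and 7.70, and 6.34, 6.20 and 6.48 in J1 (1.71 ± 0.19, adjusted p = 3.2e-05). Uggt2, which belongs to the enzyme family that checks glycoprotein folding, rose by 1.57 ± 0.13 (adjusted p = 1.34e-06). Gramd3 rose by 1.30 ± 0.11 (adjusted p = 1.57e-06). MEFs read 7.90 for AI506816, 6.73 for Rmc1, 6.54 for Uggt2 and 5.28 for Gramd3, but 3.19 for Nr1h5. For genes that MEFs express, RNA of feeders and of iPS cells cannot be told apart in these cultures.

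Gas5, a non-coding host gene of small nucleolar RNAs, read 9.60, 10.44 and 9.73 in EOS3F-28, 9.34, 10.11 and 9.75 in EOS3F-29, and 7.96, 8.65 and 8.57 in J1, a rise of 1.44 ± 0.20 (adjusted p = 4.43e-04). Its 4 probe sets did not move alike: they differed by 1.44, 1.17, 0.17 and 0.02. On the brightest of them MEFs read 9.81. Other genes that MEFs also express stood among the rises. Timp3, an inhibitor of matrix proteases at 8.69 in MEFs, read 7.75, 7.81 and 7.62 in EOS3F-28, 7.92, 6.47 and 6.66 in EOS3F-29, and 6.26, 5.66 and 5.53 in J1. The lowest EOS3F-29 array was close to the highest of J1, and its rise of 1.55 ± 0.29 (adjusted p = 0.00452) was lost without replicate 3 of J1 (0.0512). Anxa8, a phospholipid-binding annexin at 6.80 in MEFs, rose by 1.40 ± 0.29 (adjusted p = 0.0087) and was lost in the same way (0.0744). It was called in EOS3F-28 alone (2.09, adjusted p = 0.00127) and not in EOS3F-29 (0.71, 0.382), and read 7.93 in the partial line. Timp3 was not called in EOS3F-29 alone either (1.20, adjusted p = 0.0852). With the fibroblast list as a covariate the differences were 1.35 for Timp3 (adjusted p = 9.5e-04) and 1.35 for Anxa8 (2.88e-04).

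**Figure D3:**
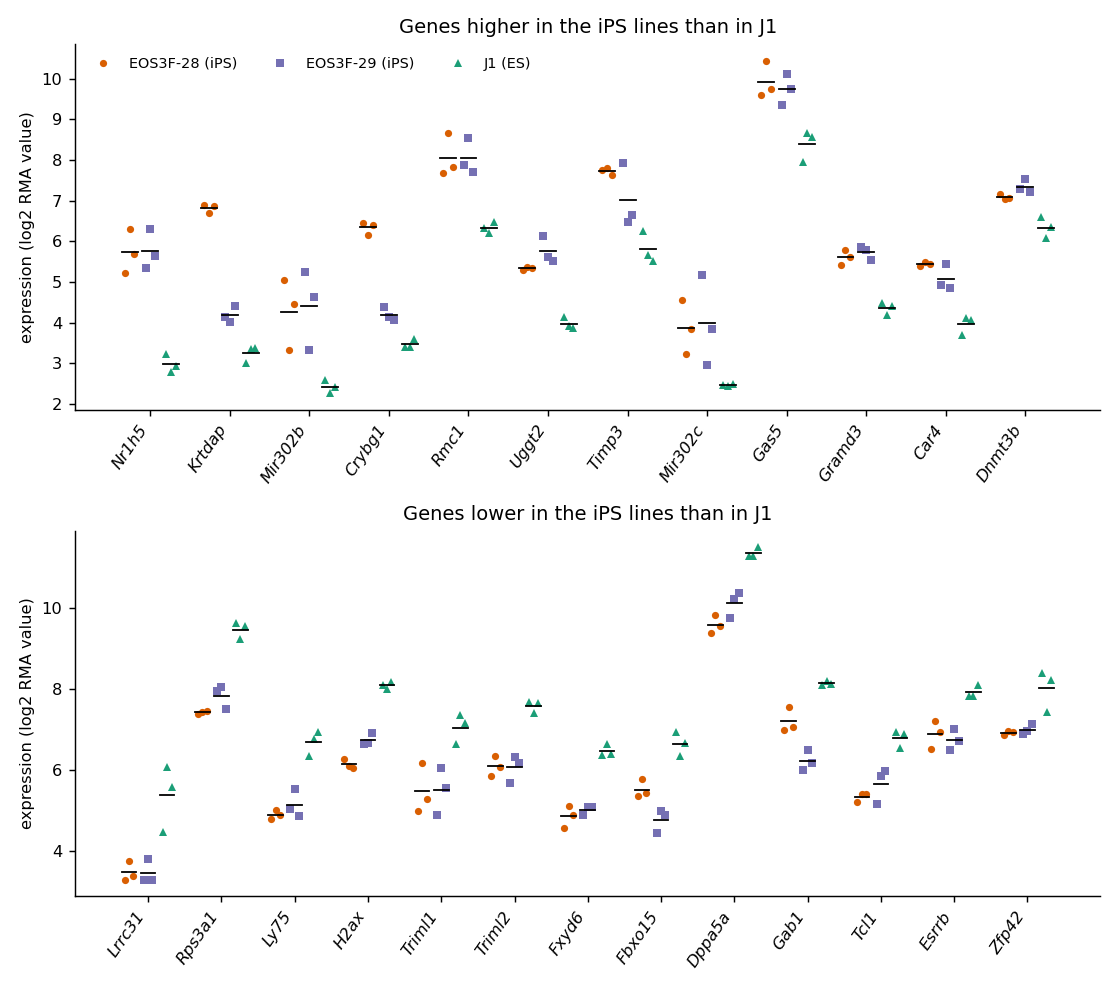
Level on each array (y axis, log2 RMA value) of 12 genes that were higher and 13 that were lower in the iPS lines than in J1; circles are EOS3F-28, squares EOS3F-29 and triangles J1, and bars are means of 3 arrays. No iPS array meets a J1 array in any of the 25 genes; Krtdap and Crybg1 separate the iPS lines from each other, while Nr1h5, Rmc1 and Triml2 do not.

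Among the largest falls was Lrrc31, which read 3.28 to 3.79 in the 6 iPS arrays and 4.46, 6.06 and 5.58 in J1 (-1.91 ± 0.30, adjusted p = 0.00127). The iPS level was like that of MEFs (3.33), and the J1 arrays were far apart. Rps3a1, a gene of the small ribosomal subunit, read 7.39, 7.42 and 7.45 in EOS3F-28, 7.94, 8.05 and 7.51 in EOS3F-29, and 9.62, 9.23 and 9.55 in J1 (-1.84 ± 0.20, adjusted p = 2.85e-05). H2ax, the histone variant that is phosphorylated at DNA breaks, was at 6.05 to 6.26, 6.63 to 6.91 and 8.0 to 8.18 (-1.66 ± 0.14, adjusted p = 2.31e-06). The fall of Ly75, an endocytic receptor of antigen-presenting cells, was -1.66 ± 0.19 (adjusted p = 4.69e-05), and that of Fxyd6, a modulator of the sodium pump, was -1.53 ± 0.13 (2.65e-06). Cyb5r1, a cytochrome b5 reductase (-1.34 ± 0.11, adjusted p = 1.3e-06), and Hsd17b14, a steroid dehydrogenase (-1.32 ± 0.11, 2e-06), were likewise below J1 in all 6 arrays. Tenm3, a cell-adhesion teneurin, was at -1.31 ± 0.16 (adjusted p = 1.25e-04). The calls of Lrrc31, Rps3a1, H2ax, Ly75, Fxyd6, Cyb5r1, Hsd17b14 and Tenm3 held in every alternative that tested them; Lrrc31 and Tenm3 had no value where genes under a mean of 5 were dropped.

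In some of these genes J1 also stood apart from the MEFs and from the partial line before and after 2i conversion. Of the 45 genes that were at least 2-fold lower, 42 had J1 above all 6 iPS arrays, as their choice favours, and in 20 of these the J1 arrays were above the other 9 arrays too. Among all 1001 genes with J1 above the 6 iPS arrays this was so for 27.3%, but those hold differences of any size. The 42 were chosen for a called difference of at least 2-fold, which favours clearing the other 9 arrays too. H2ax, H2az2, Rps3a1, Fxyd6, Gab1, Triml2 and Hsd17b14 are among the 20. Of the 35 higher genes 29 had J1 below all 6 iPS arrays, and in 12 of these it was below the other 9 too (18.8% of all 474 such genes), Gas5, Rmc1, Uggt2, Gramd3 and Dusp4 among them. The same limit holds for the 29 higher genes. The 15 arrays other than J1 all hold cells of CD1 origin, and J1 is of another strain, but a cause was not tested.

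Chromosome 8 held a larger share of the falls than of the genes. Of 955 tested genes on it 213 were lower in the iPS lines (22.3%, against 2.52% on all other chromosomes) and 1, Dusp4, was higher. Its genes are 4.79% of those tested and gave 30.8% of all falls. They also gave 11 of the 45 falls of at least 2-fold. Of its 213 genes with a mean level of at least 6, 195 were below J1 (91.5%), against 56.7% of such genes elsewhere. The median difference from J1 of these genes, less that of all other chromosomes, was -0.43 to -0.40 in the EOS3F-28 arrays and -0.39 to -0.38 in the EOS3F-29 arrays. J1 arrays lay between -0.03 and 0.02, and no other chromosome reached beyond -0.076 or 0.098 over both lines. The same measure was -0.46 to -0.38 in MEFs, -0.374 to -0.366 in the partial line and -0.158 to -0.099 after 2i conversion. DNA copy number was not measured, and a cause was not tested. Without replicate 3 of J1 the chromosome still gave 87 of 213 falls (40.8%).

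**Figure D4:**
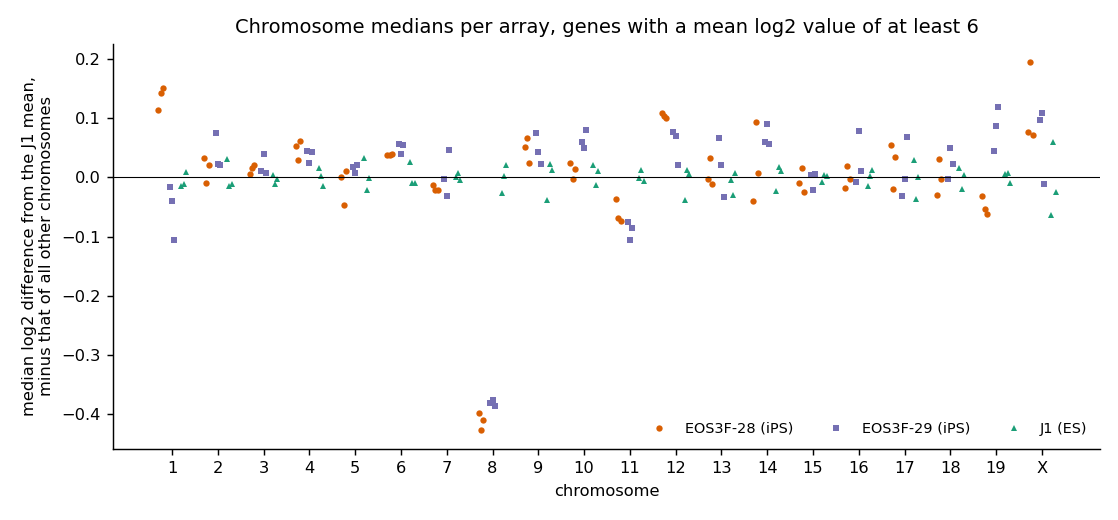
Median log2 difference from the J1 mean on each chromosome, minus that of all other chromosomes (y axis), for each of the 9 arrays (circles EOS3F-28, squares EOS3F-29, triangles J1), over genes with a mean log2 level of at least 6. The 6 iPS arrays lie between -0.43 and -0.38 on chromosome 8, and the J1 arrays near 0.

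Among the named genes of chromosome 8, Triml1 and Triml2, genes of tripartite-motif-like proteins, and Zfp42 are consecutive protein-coding genes in the GRCm38.p6 gene order. Triml1 read 4.98, 6.16 and 5.28 in EOS3F-28, 4.89, 6.04 and 5.56 in EOS3F-29, and 6.63, 7.36 and 7.14 in J1 (-1.56 ± 0.24, adjusted p = 8.58e-04). Triml2 read 5.85, 6.33 and 6.07, then 5.68, 6.33 and 6.16, and 7.67, 7.39 and 7.66 in J1 (-1.50 ± 0.14, adjusted p = 5.27e-06). Over both lines the chromosome's median, less that of the other chromosomes, was -0.395. Triml1 and Triml2 were named for the size of their falls, so values beyond this median were favoured by the choice. Gab1, a docking protein of growth factor receptors, read 6.98, 7.56 and 7.05 in EOS3F-28, 6.0, 6.48 and 6.16 in EOS3F-29, and 8.09, 8.20 and 8.11 in J1 (-1.43 ± 0.14, adjusted p = 1.38e-05). Its fall was larger in EOS3F-29, by 0.98. Cdh1, the epithelial cadherin, was at -0.87 ± 0.16 (adjusted p = 0.00452) and was lost without replicate 3 of J1 (0.0517). Mcm5, a subunit of the replicative helicase (-0.93 ± 0.16, adjusted p = 0.00201), Rpl13 (-0.75 ± 0.14, 0.0035), Klf2, Nacc1 and Tenm3 also lie on it.

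Few genes of the chromatin lists were called. Besides H2ax, the histone variant gene H2az2 was lower in the iPS lines, at 5.87 to 6.21 against 7.19 to 7.42 (-1.30 ± 0.10, adjusted p = 6.26e-07). Of 23 measured histone genes 3 fell, the third being H2bc9 (-0.47 ± 0.13, 0.0467), lost when any of 7 arrays was left out (up to 0.319, without replicate 3 of J1), and the list's median was -0.078. Of 42 polycomb and H3K9 genes Rnf2, the ubiquitin ligase of polycomb complex 1, fell (-0.74 ± 0.12, adjusted p = 0.00188), as did L3mbtl2 (-0.54 ± 0.11, 0.00645), lost without replicate 3 of J1 (0.0663). Rbbp7, a histone-binding subunit, rose by 0.48 ± 0.10 (adjusted p = 0.00645), at 9.59 to 9.77 in EOS3F-29 while EOS3F-28 (8.77 to 8.98) overlapped J1 (8.70 to 8.84). In the DNA methylation list of 21 genes Dnmt3b rose, while Tet2 and Tet1 (-0.61 ± 0.17, adjusted p = 0.0469) fell, and Tet1 was lost when any of 7 arrays was left out (up to 0.244, without replicate 3 of J1). Dnmt3l (0.40 ± 0.16, adjusted p = 0.195) was not called.

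Of 31 measured imprinted genes 3 fell and the median was 0.018. Mest read 6.19 to 6.67 in the iPS arrays and 7.59, 7.17 and 7.48 in J1 (-0.97 ± 0.15, adjusted p = 8.58e-04). Phlda2, a growth-restraining gene of the placenta, was at -0.97 ± 0.17 (adjusted p = 0.0022), and Nnat, a small membrane protein gene, at -0.63 ± 0.12 (0.00473) with arrays that overlapped J1. The Dlk1-Dio3 genes, whose silencing has marked some iPS lines, included Meg3, Rian and Dlk1, none of them called. Meg3 differed by -0.03 ± 0.13 (interval -0.31 to 0.25), Rian by -0.02 ± 0.17 and Dlk1 by 0.05 ± 0.17. Rian read 5.04, 5.76 and 5.49 in EOS3F-28, 4.45, 4.42 and 4.56 in EOS3F-29, and 4.76, 5.17 and 4.97 in J1, so that J1 lay between the lines. The lines differed by 0.96 (adjusted p = 0.0346), a call lost when any of 6 arrays was left out, at up to 0.182 without replicate 2 of EOS3F-28. Igf2 was at 0.38 ± 0.24 (adjusted p = 0.471).

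Of 36 germline genes 1 rose and 4 fell. Sycp1, a component of the synaptonemal complex, rose by 0.87 ± 0.11 (adjusted p = 1.75e-04), from 2.81 to 2.87 in J1 to 3.46 to 3.91. Syce2 of the same complex lies on chromosome 8 and fell (-1.09 ± 0.23, adjusted p = 0.0087), a call lost without replicate 3 of J1 (0.0799). The cohesin subunit gene Stag3 (-1.13 ± 0.28, adjusted p = 0.0285), the receptor gene Kit (-0.95 ± 0.26, 0.0442) and Dnd1 (-0.45 ± 0.12, 0.0319) were lost when any of 6, 6 and 5 arrays was left out, at up to 0.164 (replicate 2 of J1), 0.245 and 0.177 (both replicate 3 of J1). No Y-linked or X inactivation gene was called: Xist was at 0.68 ± 0.20 (adjusted p = 0.0592), with 4.90 to 6.12 in the iPS arrays and 4.52 to 4.85 in J1, and it was called under cyclic loess (0.0253).

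In DNA replication and mitosis 5 of 41 genes fell (median -0.272): Mcm5 and Gins2 (-0.53 ± 0.11, adjusted p = 0.00771) of chromosome 8, the cyclin gene Ccnb2 (-0.68 ± 0.15, 0.0153), the cell cycle factor gene E2f1 (-0.48 ± 0.12, 0.0244) and Cdk2 (-0.53 ± 0.15, 0.0499). Away from chromosome 8, 3 of 38 fell (median -0.264), beside 3.47% of all genes and 552 of 7331 genes with a mean level of at least 5. Gins2, Ccnb2, E2f1 and Cdk2 were lost when any of 1, 2, 4 and 7 arrays was left out, at up to 0.0511 (replicate 2 of J1), 0.119, 0.203 and 0.243 (each replicate 3 of J1). In glycolysis and the hypoxia response 5 of 35 fell (median -0.275), with the phosphofructokinase genes Pfkp (-1.32 ± 0.32, adjusted p = 0.0213) and Pfkl (-0.69 ± 0.16, 0.0209), Pgam1, the lactate carrier gene Slc16a3 and Pdk3; without replicate 3 of J1 none of the list was called lower, and under cyclic loess 1 was. In sterol synthesis 3 of 25 fell (median -0.341): Srebf1, a regulator of lipid genes (-0.54 ± 0.08, adjusted p = 8.33e-04), Mvd (-0.63 ± 0.15, 0.0197) and Scd2 (-0.52 ± 0.13, 0.0213). Mvd and Scd2 were lost without replicate 2 (0.0796 and 0.0614) or 3 of J1 (0.118 and 0.135), and Srebf1 with no single array left out. Mvd, which lies on chromosome 8, was also lost under cyclic loess (0.0564) and quantile normalization (0.0568). Away from chromosome 8, 2 of 23 fell (median -0.317).

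Of 40 ribosomal protein genes 5 fell and 1 rose (median -0.169). Besides Rps3a1 and Rpl13 these were Rpl38 (-0.50 ± 0.09, adjusted p = 0.00246), Rps20 (-0.55 ± 0.12, 0.0141), lost without replicate 1 or 3 of J1 (up to 0.11), and Rpl12 (-0.54 ± 0.13, 0.0256), lost when any of 4 arrays was left out (up to 0.134, without replicate 2 of J1). These families have many pseudogenes, and probe sets can share transcripts: Rps18 rose by 0.43 ± 0.12 on its brightest probe set (adjusted p = 0.0422), which was lost when any of 6 arrays was left out (up to 0.234, without replicate 2 of J1), while another of its 7 probe sets was at -0.96.

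The remaining lists gave few calls. Of 25 p53 and CDK inhibitor genes 2 rose (median 0.137): Perp, a desmosomal p53 target (0.91 ± 0.14, adjusted p = 9.2e-04), and Ei24, another p53 target (0.58 ± 0.10, 0.00201). Both held when any single array was left out. Of 32 interferon and MHC class I genes H2-Q4 (0.65 ± 0.18, adjusted p = 0.045) and the transcription factor gene Irf1 (0.43 ± 0.12, 0.0482) rose, each lost when any of 6 arrays was left out, at up to 0.198 (replicate 3 of J1) and 0.283 (replicate 2 of J1). Among 23 genes of simple epithelium and adhesion 3 fell (median -0.131): Cdh1, the plakophilin gene Pkp2 (-1.04 ± 0.28, adjusted p = 0.0367), lost when any of 7 arrays was left out (up to 0.166, without replicate 3 of J1), and the protease inhibitor gene Spint1 (-0.78 ± 0.18, 0.018), lost without replicate 2 (0.0782) or 3 of J1 (0.13). Epcam, the epithelial adhesion molecule of ES cells, was at 0.71 ± 0.24 and was not called (adjusted p = 0.115). In the amino acid and ER stress list of 29 genes Slc38a5 rose, and Phgdh, the first enzyme of serine synthesis, fell (-0.63 ± 0.16, adjusted p = 0.0328), a call lost when any of 5 arrays was left out (up to 0.156, without replicate 3 of J1). None of 21 housekeeping genes was called, with a median of -0.102.

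The lines differed from each other in fewer genes than either did from J1. Of all genes 106 were called between EOS3F-28 and EOS3F-29 (0.532%), 60 higher in EOS3F-28 (0.301%) and 46 lower (0.231%). With the replicate number as a block, which treats same-numbered arrays as pairs, the count was 197. At least 2-fold and called were 41 genes (0.206%), 30 of them higher in EOS3F-28. Leaving out replicate 2 or replicate 3 of EOS3F-28 reduced the count to 43.

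A few genes of keratinocytes were higher in EOS3F-28 than in EOS3F-29, among a list whose other members were not called between the lines. Of 28 measured genes of stratified epithelium 5 rose over both lines, with 7 called higher when EOS3F-28 was set against J1 and 1 when EOS3F-29 was, and 5 differed between the lines. The list's median was 0.052, and its mean level was 4.34 to 4.44 in EOS3F-28, 3.87 to 3.95 in EOS3F-29 and 3.79 to 3.92 in J1. Krtdap, a secreted protein of differentiating keratinocytes, read 6.90, 6.70 and 6.87 in EOS3F-28, 4.15, 4.03 and 4.42 in EOS3F-29, and 3.02, 3.36 and 3.37 in J1. The 3 groups were apart, and the lines differed by 2.63 ± 0.18 (adjusted p = 1.62e-07). Gcnt3, which branches mucin-type sugar chains, was at 6.08 to 6.19 in EOS3F-28, 3.83 to 3.88 in EOS3F-29 and 3.28 to 3.63 in J1, and the lines differed by 2.26 ± 0.18 (adjusted p = 1.46e-06). Krt13, a keratin of stratified epithelia, rose by 1.19 ± 0.20 over both lines (adjusted p = 0.00221). The desmosomal cadherin gene Dsg3 also rose (0.70 ± 0.18, 0.0309), with arrays that overlapped J1 and a call lost when any of 5 arrays was left out (up to 0.119, without replicate 2 of J1). Both differed between the lines, Krt13 at 0.0106 and Dsg3 at 0.0121, and each of these calls was lost without replicate 2 of EOS3F-28 (0.0517 and 0.0825) and without 1 further array.

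Other genes had the same order of lines. Slc38a5, a glutamine transporter, read 7.80, 7.29 and 7.86 in EOS3F-28, 5.77, 5.09 and 5.69 in EOS3F-29, and 4.54, 5.16 and 4.56 in J1. EOS3F-29 overlapped J1, and the lines differed by 2.13 ± 0.21 (adjusted p = 2.51e-05). Crybg1 differed by 2.14 ± 0.14 (adjusted p = 1.25e-07), although its second probe set was at -0.26 against J1. St3gal6, a sialyltransferase, differed by 1.67 ± 0.11 (adjusted p = 1.25e-07) and was above J1 in EOS3F-29 as well (0.67, 0.0024). Tgm3, an epidermal transglutaminase, read 5.86, 7.46 and 6.38 in EOS3F-28, 3.99, 4.66 and 4.39 in EOS3F-29, and 4.24, 4.41 and 4.24 in J1 (2.22 ± 0.32 between the lines, adjusted p = 0.00233). The guanine deaminase gene Gda differed by 1.46 ± 0.25 (adjusted p = 0.0106), lost without replicate 2 of EOS3F-29 (0.0648) or replicate 3 of EOS3F-28 (0.0552).

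In the partially reprogrammed line EOS3F-24 these genes stood higher still. Of the 30 genes, its mean was above that of EOS3F-28 for 29 (56.9% of all genes) and at least 2-fold above J1 for 29 (3.26% of all genes). The 30 were chosen for their level in EOS3F-28 relative to EOS3F-29. Krtdap was at 8.72 in the partial line, Slc38a5 at 10.58, Gcnt3 at 7.83, Crybg1 at 8.09, St3gal6 at 8.29 and Tgm3 at 7.95. EOS3F-29 was above the J1 mean for 23 of the 30 (48.9% of all genes). Whether a share of EOS3F-28 cells or all of them carry these transcripts cannot be told apart in bulk RNA.

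**Figure D5:**
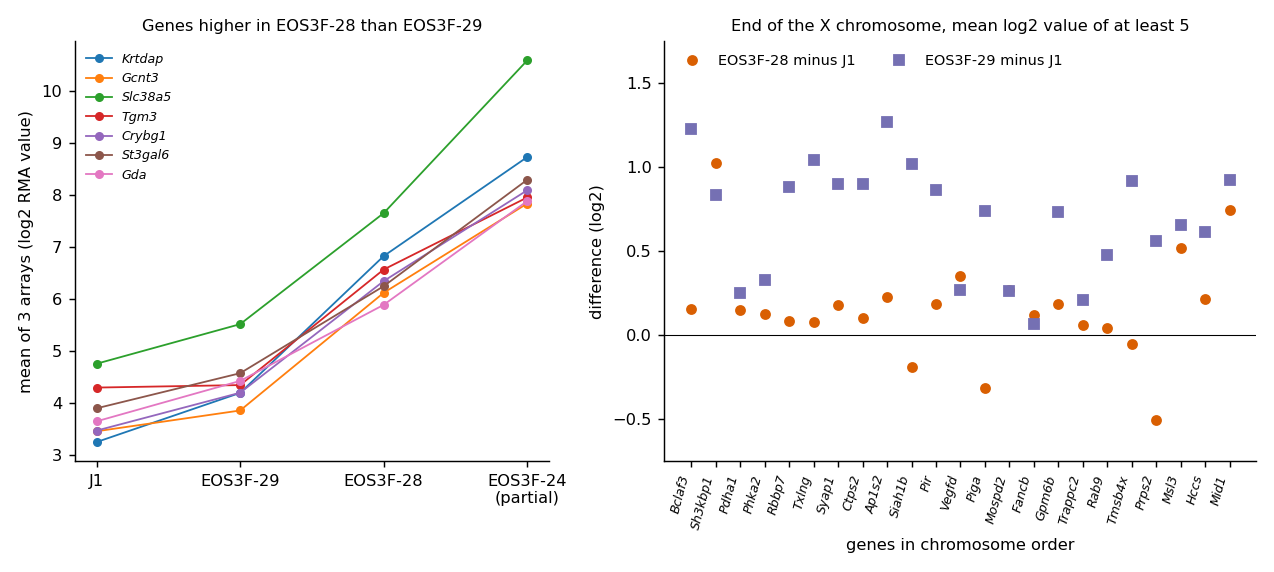
Left, mean log2 RMA level (y axis) of 7 genes in J1, EOS3F-29, EOS3F-28 and the partial line EOS3F-24. Right, log2 difference from J1 of 23 X-linked genes from Map7d2 to the end of the X in each iPS line. Their mean level over all arrays of the series was at least 5. On the left the levels of Krtdap and St3gal6 climb from J1 through EOS3F-29 and EOS3F-28 to the partial line; on the right the EOS3F-29 points lie above 0 (median 0.738) and most of EOS3F-28 lie nearer to it (median 0.149).

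Genes higher in EOS3F-29 included a block at the end of the X chromosome, found after the values were seen and given without a test. Of the 46 genes called lower in EOS3F-28 than in EOS3F-29, 11 lie on the X and 9 of these between Map7d2 and its end in the GRCm38.p6 gene order, where 52 genes were tested (0.231% of all genes were called in this direction); they make up 6 of the 11 genes of at least 2-fold. Genes of the X were kept here at a mean level of at least 5 over all arrays of the series. The filter that kept 7331 genes used the iPS and J1 arrays only. Over 23 kept genes of this end, the median difference from J1 was 0.775, 0.868 and 0.506 in the EOS3F-29 arrays. In those of EOS3F-28 it was 0.059, 0.277 and 0.058. Over 207 other X genes it was -0.196 to 0.111 and -0.048 to 0.102. DNA copy number was not measured. Siah1b, a ubiquitin ligase gene, read 5.19, 5.27 and 5.10 in EOS3F-28, 6.38, 6.55 and 6.26 in EOS3F-29, and 5.43, 5.31 and 5.38 in J1, so EOS3F-29 alone was high (the lines differed by -1.21 ± 0.13, adjusted p = 7.17e-05). Rbbp7 is another member (-0.80 ± 0.11, 0.00176). The Riken clone G530011O06Rik, also at this end, differed most (-2.59 ± 0.17, adjusted p = 1.25e-07). It was outside the 23 by its mean over all arrays of the series, MEFs (4.27) and the partial line (4.21) included. It was above J1 in both lines, by 3.45 in EOS3F-29 (adjusted p = 3.29e-09) and 0.86 in EOS3F-28 (0.00618).

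Away from the X, Cbln1, a secreted synaptic organizer, read 3.18, 3.68 and 3.60 in EOS3F-28, 4.99, 5.72 and 5.29 in EOS3F-29, and 4.23, 4.82 and 4.88 in J1. J1 lay between the lines, which differed by -1.84 ± 0.19 (adjusted p = 3.96e-05). Rnasek, a subunit of the proton pump (-1.28 ± 0.18, adjusted p = 0.00164), was lower in EOS3F-28 as well. Ipp (-1.11 ± 0.19, adjusted p = 0.00997) was lost without replicate 1 of EOS3F-28 or replicate 3 of EOS3F-29 (up to 0.0606), and Baiap2l1, an actin-binding adaptor (-1.42 ± 0.29, 0.0316), when any of 5 arrays was left out (up to 0.145, without replicate 2 of EOS3F-29). The second probe set of Baiap2l1 was at 0.26 between the lines.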

How the data were processed

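Total RNA (RNeasy Mini Kit) was measured on whole-transcript mouse arrays, 3 per group. The deposited values are log2 intensities after RMA, per the submitters' processing notes; the sources used here give neither its version nor a genome build. Of 34760 probe sets 21640 named 1 gene, 1321 several and 11799 none. The brightest probe set of each gene was kept (19937 genes; 954 had more than 1). limma 3.58.1 (R 4.3.3; lmFit, eBayes) was fitted to all 18 arrays with a mean per group, and p-values were adjusted by Benjamini-Hochberg. The number of arrays limits the precision.

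Genes named are the 15 largest changes each way of at least 2-fold without overlap, the 2 largest calls each way in each of 31 lists, the 5 largest each way between the lines and a fixed set. Predicted, clone-named and Riken symbols were left out of the 15 and the 5 largest. Other called list members were added for completeness, and a few chosen after their values were seen. Members and lists were chosen with earlier results of these data known. Between EOS3F-28 and EOS3F-29, deviations of same-numbered arrays correlated over genes (0.542, 0.639 and 0.149), so these varied alike for replicates 1 and 2 and weakly for 3. Deviations from a mean of 3 arrays depend on one another, so this does not show that arrays are paired. The labels state no pairing. Alternatives covered scaling, filters, probe sets, the arrays fitted and each array left out. Figures used Python 3.11.15 and matplotlib 3.10.9.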

Additional observations from a re-analysis of the deposited data

Results flagged for a closer look

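In 20 of the genes named here, the clone G530011O06Rik aside, the difference from J1 was not the same in both iPS lines. The test was that of EOS3F-28 against EOS3F-29 in limma (adjusted p under 0.05), which called 106 genes over all. The log2 difference of EOS3F-28 minus EOS3F-29 was 2.63 for Krtdap, 2.26 for Gcnt3, 2.22 for Tgm3, 2.14 for Crybg1, 2.13 for Slc38a5, 1.67 for St3gal6, 1.46 for Gda, 1.36 for Krt13 and 1.17 for Dsg3. It was 0.98 for Gab1, 0.97 for Phgdh, 0.96 for Rian and 0.90 for Pou5f1. In the other direction it was -1.84 for Cbln1, -1.42 for Baiap2l1, -1.28 for Rnasek, -1.21 for Siah1b, -1.11 for Ipp, -1.08 for Map7d2 and -0.80 for Rbbp7.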

How the results depend on the processing

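Against 949 genes called between the iPS lines and J1, 520 were called with the 9 arrays fitted alone, 1596 with a replicate block (5 fibroblast genes higher among them), 374 with EOS3F-29 as the only iPS line, 617 without chromosome 8 and 303 (without replicate 3 of J1) to 1180 with 1 array left out. Against 80 of at least 2-fold there were 147 with EOS3F-28 as the only line and 57 to 118 with 1 array left out. For EOS3F-28 against J1 (984) the counts were 554 with 9 arrays, 1582 with the block and 360 to 1157 with 1 array left out; for EOS3F-29 (374) they were 171, 825 and 139 to 478. Between the lines (106) they were 177 after quantile normalization, 49 without genes under a mean of 5, 197 with the block and 43 to 121. The same-number correlations for iPS lines and J1 were 0.613, 0.483 and -0.114, against -0.526 and -0.611 with replicates 1 and 2 crossed. Replicates 1 and 2 thus varied alike in J1 and the iPS lines, and replicate 3 did not. Chromosome 8 gave -0.359 at a minimum level of 5 in place of -0.395. Rps18 turned to -0.111 with probe sets averaged and Siah1b to -0.188 with EOS3F-28 alone. With EOS3F-29 as the only iPS line 28 of the named calls were lost, and 7 with EOS3F-28, Siah1b aside. Added after seeing the data, the fibroblast list as a covariate gave 1376 calls (88 of at least 2-fold). Of 78 named genes called, 42 were called under every alternative, those added after seeing the data aside and where a gene was tested (the filter at a mean of 5 dropped 23 of 106 named genes), and 49 with any single array left out. The share of higher calls for EOS3F-28 against J1 was 27.1%, and 49.7% after cyclic loess; between the lines it was 56.6%, and 81.3% with 9 arrays. Causes were not tested.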

Other observations

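Of 13120 probe sets without a single gene name, 167 were called between the iPS lines and J1 and 36 were at least 2-fold, 22 higher and 14 lower in the iPS lines.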
